A study of Mus musculus with 4 samples.

Results

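The 8 genes for carriers of neutral amino acids, Slc7a5, Slc3a2, Slc1a5, Slc38a1, Slc38a2, Slc7a7, Slc7a8 and Slc43a2, were followed in mouse peritoneal macrophages with and without IL-4. The 8 members were set by gene symbol and matched through their NCBI gene IDs, without a filter on a measured value. Earlier results of these data were known when they were chosen, so comparisons of the members with all genes are descriptions only. They were 8 of the 16403 genes listed in at least 1 library, and all 8 were listed in each of the 4 libraries. Total RNA was sequenced from macrophages of WT C57BL/6 mice and of mice on the same background that lacked Trim24 (also called TIF1a) in myeloid cells, here called KO. Trim24 was deleted by crossing floxed mice with LysM-Cre mice, in which the promoter of the lysozyme gene Lyz2 drives Cre, so that other myeloid cells of these mice carried the deletion as well. All mice, 6 to 8 weeks old and with WT littermates as controls, received an intraperitoneal injection of 4% thioglycolate, which recruits macrophages, and cells were lavaged from the peritoneum after 4 days by the labels. The cells adhered for 4 h, were kept in medium with 0.5% serum, and were then left untreated or given IL-4 at 20 ng/mL for 6 h. Each of the 4 groups (WT untreated, WT IL-4, KO untreated, KO IL-4) held 1 library, and how many mice gave the cells of a library is not given in the sources used here. No difference below has a replicate check: each test on reads compares 2 libraries and not the conditions.

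Neutral amino acids such as leucine, glutamine and alanine cross the plasma membrane through several carrier families. Slc3a2 encodes CD98, the glycoprotein heavy chain that brings the light chains encoded by Slc7a5, Slc7a7 and Slc7a8 to the cell surface, where they exchange one amino acid for another. Slc1a5, Slc38a1 and Slc38a2 encode sodium-coupled carriers that take up glutamine and small neutral amino acids, and Slc43a2 encodes a carrier that lets leucine and other large neutral amino acids pass down their gradient. Leucine and glutamine that enter the cell feed protein synthesis and the nutrient-sensing kinase mTORC1, and a shortage of amino acids raises transcription of several carrier genes through the factor ATF4. IL-4 acts through Stat6 and moves macrophages toward the alternatively activated (M2) state.

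The libraries held 11026033 to 11250099 expected reads, and a gene represented by 3 reads stood at 0.267 to 0.272 CPM (counts scaled by library total), the floor of detection used here. Trim24 was listed at 2.55 and 1.48 FPKM in the untreated and IL-4 WT libraries and at 0.06 and 0.14 FPKM in the KO libraries. The values of the carriers are in FPKM, fragments scaled by transcript length and by the mapped reads of the library, which allows levels of different genes to be compared. Of the 7 macrophage markers all were listed in every library. Their summed level was 14840 and 14737 FPKM in WT and 8894 and 8287 FPKM in KO (untreated, then IL-4). Lyz2, whose promoter drives Cre in the KO mice, was called lower in both KO libraries. Mertk was called higher in KO with IL-4, a call lost when the trend over transcript length, described below, was removed. Against untreated cells Csf1r was called higher with IL-4 in both genotypes and Fcgr1 lower in KO, also with that trend removed. The sum without Lyz2 is given with the genotype comparison below. Summed markers of T and NK cells (9 genes, 3.24 to 4.29 FPKM), B cells (5 genes, 4.23 to 6.52 FPKM), neutrophils (5 genes, 7.58 to 11.3 FPKM) and eosinophils and mast cells (7 genes, 2.03 to 4.90 FPKM) were low, and Trac, S100a9, Ly6g, Retnlg, Epx and Fcer1a stood at 0 in every library. The 7 stromal and mesothelial markers summed to 44.6, 38.8, 22.4 and 43.4 FPKM in WT untreated, WT IL-4, KO untreated and KO IL-4. In RNA from a bulk sample, fewer cells of a type and less RNA per cell cannot be told apart. The log2 ratios of 10519 to 10524 genes also moved with transcript length, with a Spearman rho of -0.36 for IL-4 in WT, -0.10 for IL-4 in KO, 0.12 for KO against WT untreated and 0.51 for KO against WT with IL-4, as a description across genes of shared libraries. Set against the mean of the 4 libraries, levels moved with length most in WT IL-4 (rho -0.44). In WT untreated, KO untreated and KO IL-4 the rho was 0.19, 0.25 and 0.13. Ratios of the longer members are therefore given also with that trend removed.

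The 8 genes lie on 6 chromosomes of the mouse genome (GRCm38.p6, RefSeq gene spans). Slc7a5 (gene ID 20539) spans chr8:121881146-121907686, Slc3a2 (17254) spans chr19:8706882-8723369, Slc1a5 (20514) spans chr7:16781334-16798274 and Slc43a2 (215113) spans chr11:75529915-75577575. Slc38a1 (105727, chr15:96571418-96643438) and Slc38a2 (67760, chr15:96687392-96699728) are neighbours 44.0 kb apart with 0 protein-coding genes between them. Slc7a7 (20540, chr14:54369442-54420068) and Slc7a8 (50934, chr14:54722215-54781886) are 302 kb apart on the same chromosome, with 15 protein-coding genes between them. In the gene models 922 of the 10042 exon bases of Slc43a2 also lie in exons of Gm45606 on the opposite strand, and 232 of the 3315 exon bases of Slc7a7 lie in exons of Oxa1l on the opposite strand. Whether reads were counted by strand is not stated, so reads in these stretches could not be assigned to one gene with certainty. The exons of the other 6 members were free of such overlap.

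RefSeq promoter windows were at hand for 5 of the 8 members, Slc3a2, Slc38a2, Slc7a7, Slc7a8 and Slc43a2. The 250 bases before each start listed for these windows were searched on both strands. Slc7a7 had 5 windows, some of them overlapping, and Slc43a2 had 2, whereas Slc3a2, Slc38a2 and Slc7a8 had 1 each. The shares of all windows given below are per window and not per gene. The motifs were TGATGNAA, the C/EBP-ATF composite element bound by ATF4, the E-box CACGTG, and the palindromes TTCNNNNGAA and TTCNNNGAA bound by Stat factors. Of these palindromes the wider spacing is preferred by Stat6. For Slc3a2, Slc43a2 and Slc7a7 all listed starts lie inside the gene spans given above. The bases before the outer 5′ end of these 3 spans were therefore not searched. A TGATGNAA match stood 141 bases before the first listed start of Slc7a7 and another 243 bases before its second, whereas 3.45% of all 32851 windows held one. A TTCNNNNGAA match, TTCTATGGAA at chr11:75531901-75531910 on the plus strand, stood 211 bases before the second listed start of Slc43a2, against 5.85% of all windows. No window of the 5 members held CACGTG or TTCNNNGAA, which stood in 6.02% and 7.02% of all windows. The windows of Slc3a2, Slc38a2 and Slc7a8 held none of the 4 motifs. A match is a run of letters and not evidence of binding. Stretches directly before the first listed start are shown 5′ to 3′ on the strand of the gene (GRCm38.p6, RefSeq): that of Slc43a2 because the gene fell with IL-4, that of Slc3a2 because it encodes the shared heavy chain, and that of Slc7a7 because the windows of the other 4 members searched held no C/EBP-ATF match, here set in capitals. The stretches lie at chr11:75531444-75531693 (plus strand), chr19:8713898-8713960 (minus strand) and chr14:54417945-54418194 (minus strand). That of Slc3a2 was cut to 63 bases, because bases in annotated exons on the same strand were left out.
Slc43a2: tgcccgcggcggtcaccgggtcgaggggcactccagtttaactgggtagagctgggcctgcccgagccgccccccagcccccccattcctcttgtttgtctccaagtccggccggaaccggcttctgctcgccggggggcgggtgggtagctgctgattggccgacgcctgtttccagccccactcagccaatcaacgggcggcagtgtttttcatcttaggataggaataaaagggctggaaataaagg
Slc3a2: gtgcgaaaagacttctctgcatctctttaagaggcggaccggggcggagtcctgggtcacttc
Slc7a7: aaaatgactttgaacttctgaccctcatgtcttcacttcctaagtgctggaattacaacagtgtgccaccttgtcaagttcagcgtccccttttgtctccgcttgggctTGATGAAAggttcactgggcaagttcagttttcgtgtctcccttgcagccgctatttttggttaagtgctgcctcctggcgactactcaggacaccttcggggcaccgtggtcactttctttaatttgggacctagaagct

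Slc3a2 was the most abundant of the 8 in every library, by a wide margin. It stood at 140 FPKM in WT untreated, 199 in WT IL-4, 131 in KO untreated and 189 in KO IL-4, which placed it between rank 370 and rank 505 of all genes. It made up 51.5% and 51.0% of the summed FPKM of the 8 members in the untreated WT and KO libraries, and 61.5% and 60.0% in the IL-4 libraries. The summed level of the 8 went from 272 to 324 FPKM in WT and from 257 to 315 FPKM in KO.

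**Figure D1:**
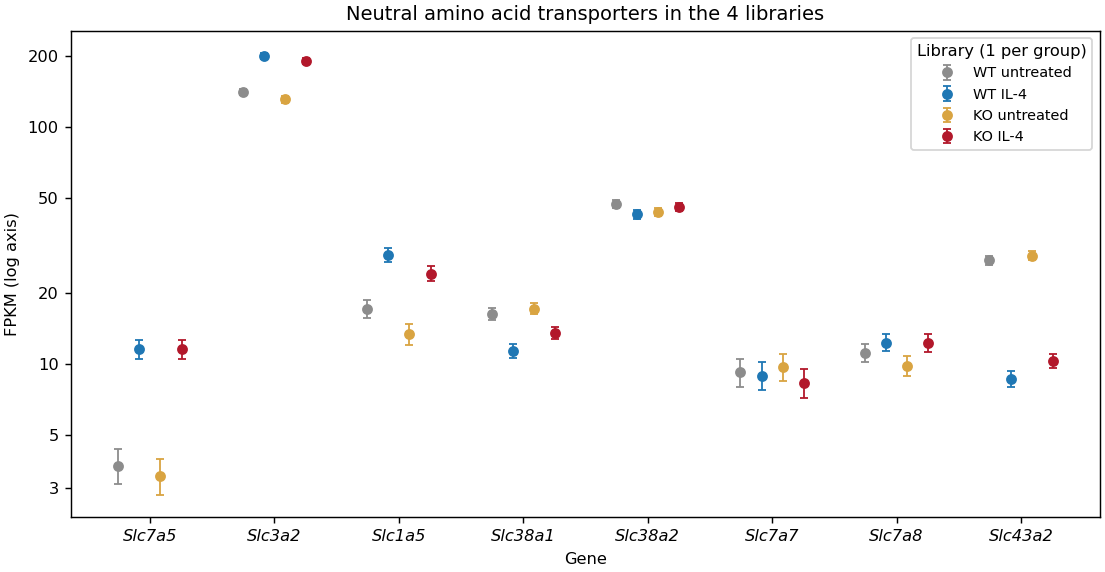
Level of each neutral amino acid transporter in FPKM (log axis) in the 4 libraries, 1 library per group, with 95% Poisson intervals that cover counting error only. Slc3a2 lies above the other 7 genes in every library, Slc7a5 is lowest in both untreated libraries and stands at 11.6 and 11.5 FPKM with IL-4, and Slc43a2 drops from 27.4 and 28.7 FPKM to 8.64 and 10.3 FPKM.

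In untreated WT macrophages the order below Slc3a2 was Slc38a2, Slc43a2, Slc1a5, Slc38a1, Slc7a8, Slc7a7 and Slc7a5. Within counting error Slc1a5 (95% Poisson interval, 15.6 to 18.6 FPKM) could not be separated from Slc38a1 (15.4 to 17.2 FPKM), nor Slc7a8 (10.2 to 12.2 FPKM) from Slc7a7 (8.03 to 10.5 FPKM). With IL-4 the order in WT became Slc38a2, Slc1a5, Slc7a8, Slc7a5, Slc38a1, Slc7a7 and Slc43a2. There the intervals of Slc7a8 (11.3 to 13.4 FPKM), Slc7a5 (10.5 to 12.7 FPKM) and Slc38a1 (10.6 to 12.1 FPKM) overlapped, as did those of Slc7a7 (7.76 to 10.2 FPKM) and Slc43a2 (8.01 to 9.31 FPKM). Slc43a2, the second most abundant of the 7 after Slc38a2 in untreated WT cells, was last in WT IL-4 by its point value. In KO IL-4 Slc7a7 was last instead (8.31 FPKM), and Slc43a2 stood at 10.3 FPKM. These levels were not corrected for the trend over transcript length. The plot of levels in the 4 libraries shows the 8 genes side by side.

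To ask what IL-4 did to the carriers in WT macrophages, the treated and untreated WT libraries were set against each other with Fisher's exact test on reads, two-sided. A gene was called when its adjusted p was under 0.05 and its change exceeded 1.5-fold on the log2(FPKM + 0.1) scale, on which changes of low genes are understated. Slc7a5 and Slc1a5 rose and Slc43a2 fell, and the other 5 members were not called. Over all 15593 genes tested 4.91% were called higher and 7.88% lower. The median absolute log2 ratio of the 8 members was 0.51, against 0.25 over all genes of at least 1 FPKM. In KO macrophages the same 3 genes were called in the same directions, where 5.29% of 15738 genes were called higher and 4.03% lower, and the median absolute log2 ratio was 0.44 for the members against 0.20 for all genes.

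Slc7a5, the light chain that exchanges leucine, tryptophan and other large neutral amino acids, stood at 3.71 FPKM (145 reads) in WT untreated, 11.6 (461 reads) in WT IL-4, 3.36 (131 reads) in KO untreated and 11.5 (450 reads) in KO IL-4. Both IL-4 libraries lay above both untreated libraries, and the genotypes lay close together within each treatment. The rise was 3.06-fold in WT (log2 ratio 1.61 ± 0.14, counting SE, Fisher's exact test, adjusted p = 1.5e-36) and 3.36-fold in KO (1.75 ± 0.14, adjusted p = 1.6e-40). By size of increase Slc7a5 ranked 156 in WT and 140 in KO among genes of at least 1 FPKM.

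Slc3a2, the partner of Slc7a5, rose less in relative terms. Its log2 ratio was 0.51 ± 0.03 in WT (1.42-fold, Fisher's exact test, adjusted p = 2.9e-65) and 0.53 ± 0.03 in KO (1.45-fold, adjusted p = 2.6e-66), so that the change exceeded counting error but stayed below the 1.5-fold threshold in both genotypes. In FPKM the difference was larger than for any other member. There were 37.7 Slc3a2 transcripts for each Slc7a5 transcript in WT untreated cells and 17.2 with IL-4, and 38.9 and 16.4 in the KO. The log2 change of that ratio was -1.13 (95% counting interval, -1.41 to -0.86) in WT and -1.25 (-1.53 to -0.96) in KO. Counted against all light chains that pair with CD98 (Slc7a5, Slc7a6, Slc7a7, Slc7a8, Slc7a10 and Slc7a11, the last of them the cystine carrier), Slc3a2 moved less, with 1.64, 1.64, 1.62 and 1.79 transcripts per light chain transcript in the 4 libraries. Slc7a11 made up most of that light chain sum, at 56.8, 83.5, 54.6 and 69.7 FPKM.

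Slc7a7 and Slc7a8, the other 2 light chains among the members, were not called with IL-4 in either genotype. Slc7a7, which exports cationic amino acids in exchange for neutral ones, stood at 9.21, 8.91, 9.68 and 8.31 FPKM, with log2 ratios of -0.05 ± 0.14 in WT (95% counting interval, -0.32 to 0.22) and -0.22 ± 0.14 in KO (-0.49 to 0.06). Slc7a8, which carries a broader range of neutral amino acids than Slc7a5, stood at 11.2, 12.3, 9.80 and 12.3 FPKM. Its log2 ratio was 0.14 ± 0.09 in WT (Fisher's exact test, adjusted p = 0.25) and 0.32 ± 0.09 in KO (adjusted p = 0.0024), the latter beyond counting error but below 1.5-fold. With the length trend removed the log2 ratios were 0.25 (adjusted p = 0.017, exact binomial test) and 0.33 (adjusted p = 0.0015), so that both were beyond counting error.

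Slc1a5, the sodium-dependent exchanger best known for glutamine uptake, stood at 17.04 FPKM (521 reads), 28.9 (901 reads), 13.3 (407 reads) and 24.1 (735 reads) in WT untreated, WT IL-4, KO untreated and KO IL-4. Again both IL-4 libraries were above both untreated libraries, and in each treatment the KO library was the lower one. The gene rose 1.69-fold in WT (log2 ratio 0.76 ± 0.08, Fisher's exact test, adjusted p = 3.2e-21) and 1.80-fold in KO (0.85 ± 0.09, adjusted p = 3.5e-21). When libraries were assumed to vary with a coefficient of 0.2 beyond counting, the calls of Slc1a5 were lost in both genotypes (edgeR, adjusted p = 0.83 and 0.79), whereas those of Slc7a5 (0.016 and 0.0066) and Slc43a2 (0.0090 and 0.033) were kept.

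The paired neighbours Slc38a1 and Slc38a2, both sodium-coupled carriers of glutamine and small neutral amino acids, were not called. Slc38a1 stood at 16.3 FPKM in WT untreated, 11.3 in WT IL-4, 17.1 in KO untreated and 13.5 in KO IL-4, with both IL-4 libraries below both untreated ones. Its log2 ratio was -0.52 ± 0.06 in WT (Fisher's exact test, adjusted p = 2.7e-15) and -0.34 ± 0.06 in KO (adjusted p = 5.3e-08), and became -0.13 (adjusted p = 0.15) and -0.24 with the length trend removed; its transcripts averaged 7245 bases. Slc38a2, a known target of ATF4 in amino acid shortage, was the steadiest of the 8, at 47.2, 42.8, 43.8 and 46.0 FPKM. The log2 ratio of Slc38a2 was -0.14 ± 0.04 in WT (Fisher's exact test, adjusted p = 0.0037), which turned to 0.04 with the length trend removed, and 0.07 ± 0.04 in KO (adjusted p = 0.25). Per Slc38a2 transcript there were 0.345 Slc38a1 transcripts in WT untreated cells and 0.265 with IL-4, and 0.391 and 0.294 in the KO.

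Slc43a2, the uniporter for leucine and related amino acids, stood at 27.4 FPKM (2154 reads) in WT untreated, 8.64 (696 reads) in WT IL-4, 28.7 (2251 reads) in KO untreated and 10.3 (811 reads) in KO IL-4. Both IL-4 libraries lay far below both untreated ones. The level was 3.14-fold lower with IL-4 in WT (log2 ratio -1.65 ± 0.06, Fisher's exact test, adjusted p = 5.5e-176) and 2.77-fold lower in KO (-1.47 ± 0.06, adjusted p = 6.9e-153). Its transcripts averaged 7044 bases, and with the length trend removed the log2 ratios were -1.28 and -1.38, still called. Counting from the lowest log2 ratio, Slc43a2 ranked 67 in WT and 88 in KO. Of the summed FPKM of the 8 members it took 10.1% in WT untreated and 2.67% in WT IL-4, and 11.2% and 3.27% in the KO.

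The 2 leucine carriers Slc7a5 and Slc43a2 changed places by point value. There were 0.136 Slc7a5 transcripts per Slc43a2 transcript in WT untreated and 1.34 in WT IL-4, and 0.117 and 1.12 in the KO libraries. On the log2 scale this ratio changed by 3.30 (95% counting interval, 3.01 to 3.60) in WT and 3.26 (2.95 to 3.56) in KO. The exchanger was thus the rarer of the pair in both untreated libraries and the more abundant one by point value in both IL-4 libraries, where in KO the 95% Poisson intervals overlapped (10.5 to 12.7 FPKM for Slc7a5 and 9.60 to 11.03 FPKM for Slc43a2). This ratio was not recomputed with the length trend removed. For IL-4 in WT that trend was -0.06 at the length of Slc7a5 and -0.37 at that of Slc43a2, on the log2 scale. In KO it was 0.003 and -0.09. Its removal would make the change smaller, more so in WT.

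**Figure D2:**
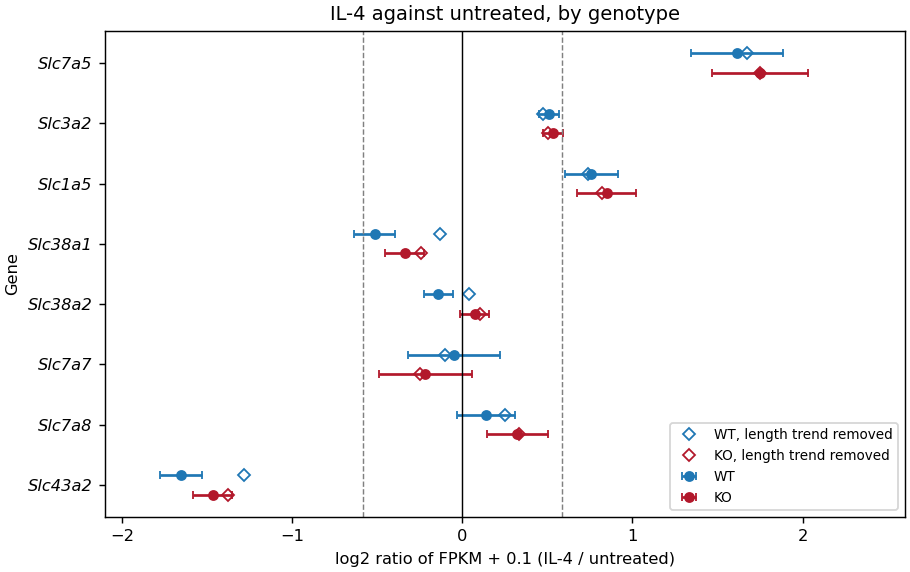
IL-4 against untreated for each of the 8 genes, as the log2 ratio of FPKM + 0.1, in WT and KO, with 95% counting intervals, and with the trend over transcript length removed (open diamonds, without intervals). Dashed lines mark 1.5-fold: Slc7a5 and Slc1a5 lie above the upper line and Slc43a2 below the lower one in both genotypes, and Slc38a1 in WT moves from -0.52 to -0.13 when the trend is removed.

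A fit over all 4 libraries, with treatment and genotype as additive effects and 1 residual degree of freedom, also gave the IL-4 effect. Its error came from the disagreement between genotypes, which edgeR pools across genes. The p-values of single members therefore rest on error shared with other genes and are not a replicate test of each gene. By edgeR's quasi-likelihood test Slc7a5 (log2 fold change 1.72, adjusted p = 9.6e-08), Slc1a5 (0.82, adjusted p = 2.8e-05) and Slc3a2 (0.53, adjusted p = 0.00032) were higher. Slc43a2 (-1.55, adjusted p = 2.1e-08) and Slc38a1 (-0.41, adjusted p = 0.0046) were lower in the edgeR fit, which has no fold threshold. In all, 3 members were higher and 2 lower, where 12.0% of 11791 genes passed as higher and 13.3% as lower. With the length trend as an offset Slc38a1 lost its call (-0.17, adjusted p = 0.058) and Slc7a8 gained one (0.31, adjusted p = 0.0031).

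**Figure D3:**
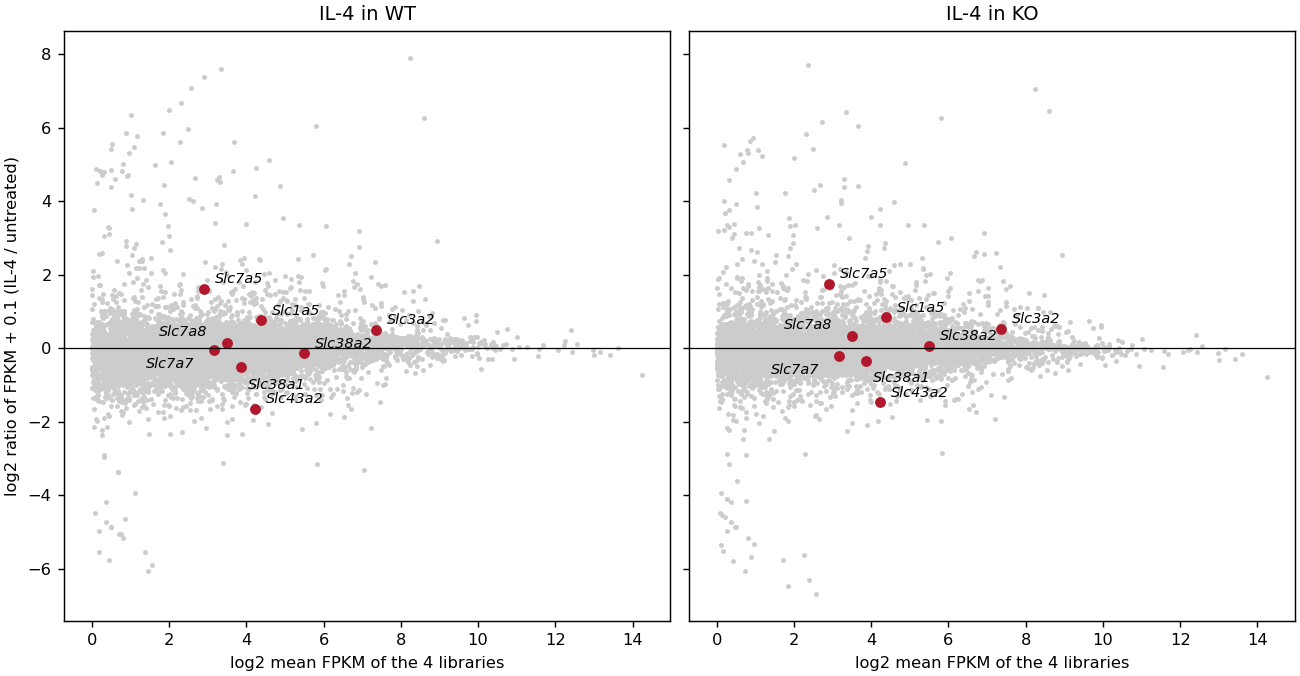
Log2 ratio of FPKM + 0.1 with IL-4 (vertical axis) against the log2 mean FPKM of the 4 libraries (horizontal axis), in WT (left) and KO (right), for all genes averaging at least 1 FPKM (grey) and the 8 transporters (red). Slc7a5 at 1.61 and 1.75 and Slc43a2 at -1.65 and -1.47 lie at the edge of the cloud of genes of their level, and Slc38a2, Slc7a7 and Slc7a8 lie inside it.

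To see whether loss of Trim24 changed the carriers, KO libraries were compared with WT libraries at each treatment. No member was called in either direction in untreated cells, where calls made up 0.839% of 15623 genes (higher) and 0.742% (lower). Nor was any called with IL-4, where the calls were 3.05% of 15573 genes higher and 0.764% lower. The log2 ratios of the 8 ranged from -0.35 to 0.07 without IL-4 and from -0.26 to 0.25 with IL-4, and their median absolute value was 0.10 in both, against 0.11 and 0.17 over all genes.

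Slc1a5 had the lowest ratio in both treatments. Its log2 ratio of KO to WT was -0.35 ± 0.10 untreated (adjusted p = 0.0053, Fisher's exact test) and -0.26 ± 0.07 after IL-4 (adjusted p = 0.0020), below 1.5-fold in both. Removing the length trend left -0.34 and -0.25. In the additive edgeR fit the KO effect on Slc1a5 was -0.31 (adjusted p = 0.16, unadjusted p = 0.0082). No member was called for the KO effect at an adjusted p under 0.05, where 1.29% of all genes were called higher and 0.373% lower. At an unadjusted p under 0.05 Slc1a5 alone of the members passed. The share of all genes that passed in this way was not counted, so no weight is put on that pass. The lower macrophage marker sum of the KO libraries given above was that of Lyz2, and the other 6 markers, counted without it after the values were seen, summed to 3551 and 3926 FPKM in WT and 3701 and 3526 FPKM in KO. The stromal and mesothelial sum was lower in the untreated KO library. Of its 5 markers of at least 1 FPKM, 4 were called lower there, 80% beside 0.77% of all genes of that level, and 0 higher. With IL-4 in KO 3 of the 5 (Col1a1, Col1a2 and Krt19) were called higher, 60% beside 6.45%, and 0 lower. In KO against WT with IL-4 1 was higher (Col1a1) and 1 lower (Dcn). The part of such cells in the genotype ratios and in those of IL-4 in KO was not tested.

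Slc3a2 was lower in the KO by 1.07-fold untreated (log2 ratio -0.10 ± 0.03, Fisher's exact test, adjusted p = 0.045) and 1.05-fold with IL-4 (-0.07 ± 0.03, adjusted p = 0.031). With the length trend removed neither was beyond counting error (exact binomial test, adjusted p = 0.17 and 0.29). Slc38a1 and Slc43a2 each had a log2 ratio of 0.25 with IL-4 (± 0.06 and ± 0.07, Fisher's exact test, adjusted p = 0.0020 and 0.0061), and both turned to -0.08 and -0.07 with the length trend removed. For Slc7a5 the ratio was -0.14 (95% counting interval, -0.48 to 0.20) untreated and -0.00 (-0.19 to 0.18) with IL-4. For Slc7a8 it was -0.19 and -0.00, for Slc7a7 0.07 and -0.10, and for Slc38a2 -0.11 and 0.11.

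**Figure D4:**
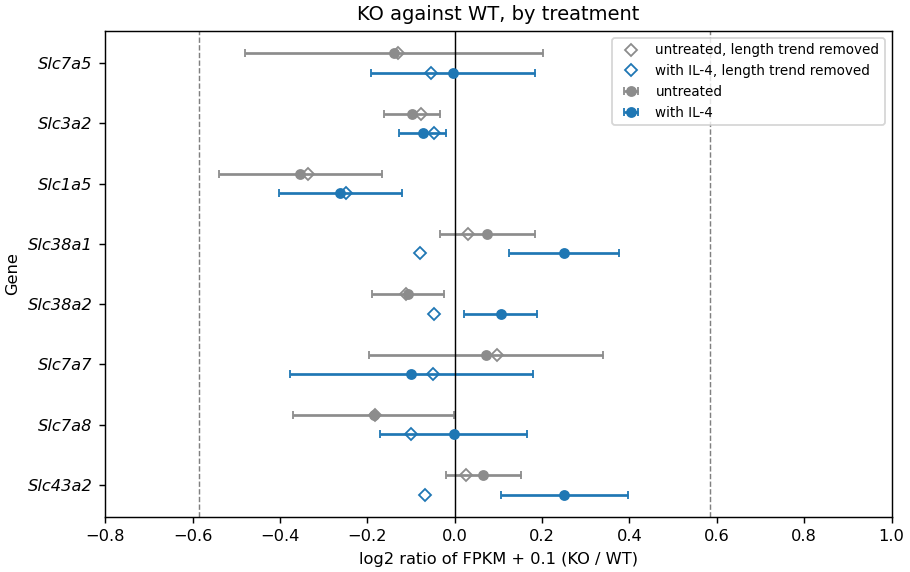
KO against WT for each of the 8 genes, as the log2 ratio of FPKM + 0.1, untreated and with IL-4, with 95% counting intervals, and with the trend over transcript length removed (open diamonds, without intervals). All points lie inside the dashed lines at 1.5-fold; Slc1a5 lies left of 0 in both treatments at -0.35 and -0.26, and Slc38a1 and Slc43a2 with IL-4 move from 0.25 to -0.08 and -0.07 when the trend is removed.

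The IL-4 responses of the genotypes were then compared with each other, as the KO log2 ratio minus the WT log2 ratio, against counting error. No member was called, and 2.88% of 11664 genes averaging at least 10 reads were called in either direction. The largest difference beyond counting error was that of Slc38a2, 0.21 (95% counting interval, 0.09 to 0.33), which was below 1.5-fold and fell to 0.06 with the length trend removed. For Slc7a5 the difference was 0.14 (-0.25 to 0.53), for Slc1a5 0.09 (-0.14 to 0.32) and for Slc43a2 0.19 (0.02 to 0.35), the last turning to -0.09 with the trend removed. The interval for Slc3a2 was the narrowest, at 0.02 (-0.06 to 0.11). A response difference of 1.5-fold, 0.58 on the log2 scale, lay outside the intervals of all 8 members.

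Of 37 further amino acid transporter genes, 16 had a mean of at least 1 FPKM. In WT 2 of the 16 rose with IL-4 (Slc7a2 and Slc38a9) and 4 fell (Slc6a6, Slc15a4, Slc16a10 and Slc36a1), and in KO 3 rose (Slc7a1, Slc7a2 and Slc38a6) and 0 fell. With the length trend removed the balance in WT turned, to 4 higher (Slc7a1, Slc7a2, Slc7a11 and Slc38a9) and 2 lower (Slc6a6 and Slc15a4), and in KO 4 rose (Slc38a9 was added) and 0 fell. Without that correction, of all genes of that level, 6.08% rose and 9.38% fell in WT and 6.45% rose and 5.03% fell in KO, and with it 6.36% rose and 6.38% fell in WT and 6.32% rose and 5.03% fell in KO. The median log2 ratio of the 16 was 0.03 in WT and 0.17 in KO, against -0.01 and 0.01 for all genes. With the length trend removed Slc7a1, Slc7a2 and Slc38a9 were called higher in both genotypes. Without that correction the one called in both was Slc7a2, the carrier of arginine and other cationic amino acids. It went from 1.52 to 34.5 FPKM in WT (log2 ratio 4.42 ± 0.13) and from 2.30 to 79.1 FPKM in KO (5.04 ± 0.10), a larger change than that of any neutral carrier among the members. Between genotypes 0 of the 16 were called in untreated cells. With IL-4 Slc7a2 was called higher in KO (log2 ratio 1.19), 6.25% of the 16 beside 3.84% of all genes of that level, and 0 were lower. When the length trend was removed Slc7a2 kept its call and Slc7a11 was called lower. Of all genes of that level 1.73% were then higher and 0.589% lower.

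Genes of the amino acid response, which ATF4 controls when amino acids run short, were counted because Slc7a5, Slc3a2 and Slc38a2 belong to the same response. Of 32 listed genes 27 had a mean of at least 1 FPKM, and 17 of them rose with IL-4 in WT and 15 in KO, 14 of them in both, while 0 fell in either. These are 63.0% and 55.6% of the 27, beside the 6.08% and 6.45% of all genes of that level that rose. The median log2 ratio was 0.74 in WT and 0.73 in KO. Phgdh, the first enzyme of serine synthesis, went from 20.7 to 72.1 FPKM in WT and from 12.7 to 58.3 FPKM in KO. Psat1, which acts after it, went from 11.1 to 26.5 and from 8.93 to 27.3 FPKM, and Asns, which makes asparagine, from 12.7 to 29.8 and from 8.43 to 25.6 FPKM. Chac1, which degrades glutathione, went from 2.47 to 5.53 and from 1.32 to 6.17 FPKM. Promoter windows of 27 of the 32 genes were at hand, and 8 of these genes held TGATGNAA, against 1056 of all 27025 genes. Between genotypes 2 of the 27 were lower in untreated KO cells (Asns and Phgdh), of which Asns lost its call with the length trend removed, and 1 was higher in KO cells with IL-4 (Sesn2). Over all genes of that level 0.770% were lower in untreated KO cells and 3.84% higher in KO cells with IL-4.

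**Figure D5:**
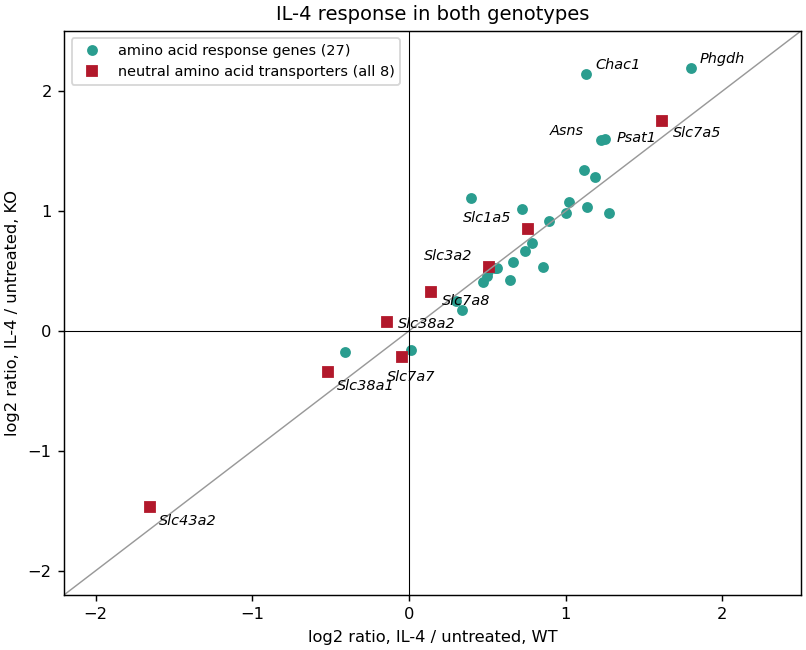
Log2 ratio of FPKM + 0.1 with IL-4 in WT (horizontal axis) and KO (vertical axis) for the 8 transporters (squares) and the 27 amino acid response genes of at least 1 FPKM (circles), with the line of equal response. Slc7a5 at 1.61 and 1.75 lies among the upper response genes, between Phgdh (1.80 and 2.19) and Psat1 (1.25 and 1.60), Slc38a2 lies near 0, and Slc43a2 lies alone at -1.65 and -1.47.

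For each member the gene with the most similar pattern was sought among 7463 genes of at least 5 FPKM, by the Euclidean distance between log2 values centred over the 4 libraries. For Slc7a5 it was Nrbf2, at a distance of 0.08 (17.9, 57.2, 15.9 and 52.7 FPKM in WT untreated, WT IL-4, KO untreated and KO IL-4). For Slc1a5 it was Tnfrsf26 (0.09) and for Slc43a2 it was Sh2d3c (0.09; 26.8, 8.63, 27.1 and 9.43 FPKM). The nearest gene lay at a distance of 0.01 to 0.02 for Slc3a2 (Irf2), Slc38a1 (Svil), Slc38a2 (Adam15), Slc7a7 (Gng10) and Slc7a8 (Larp7). Among the members themselves Slc7a5 was nearest to Slc1a5 (0.91) and Slc43a2 to Slc38a1 (1.13). With 4 libraries such likeness rests on few values and describes them only.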

How the data were processed

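Total RNA of 4 libraries, which the labels assign to a genotype and a treatment, had been sequenced on an Illumina HiSeq. The authors used Bowtie for mapping to GRCm38 (mm10) and RSEM for quantification, whose versions are not stated. The deposited expected counts are the reads assigned to a gene, of which 22.2% to 22.8% were not whole (tolerance 0.001), and the deposited FPKM values divide them by effective length and library total. Genes without reads are unlisted and were set to 0. Of 16403 gene IDs 16365 matched a RefSeq symbol. Expected counts were rounded, and libraries were compared in pairs with Fisher's exact test (two-sided, scipy 1.17.1) with Benjamini-Hochberg adjustment over all genes with a read in the pair, called at an adjusted p under 0.05 and over 1.5-fold with 0.1 FPKM added. The additive fit used edgeR 4.0.16 (R 4.3.3, TMM, filterByExpr, quasi-likelihood test), with DESeq2 1.42.0 and limma 3.58.1 as alternatives. The length trend was a lowess curve (fraction 0.3) over log2 transcript length, genes of at least 200 bases. The difference of responses was tested against counting error with a normal approximation. Standard errors and intervals cover counting error only, since each group held 1 library. Sequenced fragments are not independent molecules, so the counting error itself may be understated.

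The members, gene lists and tests were chosen with earlier results of these data known. Named genes were the 8 members and Trim24, from each other list up to 4 genes called in one direction in both IL-4 pairs and up to 2 called in both genotype pairs, by mean absolute log2 ratio, and the nearest genes in pattern. Lists were counted over genes averaging at least 1 FPKM. Fits were tested on simulated counts. Alternatives were pseudocounts of 0.01 and 1, TMM and upper-quartile scaling, expression filters, an assumed coefficient of variation of 0.2, a fold of 2 and removal of the length trend. The genes of the mTORC1 list that fell with IL-4 in WT are not all reported here, nor are those that differed between genotypes with IL-4. Counts over the lists with the length trend removed were added after the data were seen.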

Additional observations from a re-analysis of the deposited data

Results flagged for a closer look

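The IL-4 response of Slc38a2 differed between the genotypes beyond counting error, by 0.21 on the log2 scale (KO minus WT, 95% counting interval 0.09 to 0.33, adjusted p = 0.0054 by the normal approximation to counting error across all genes, with 1 library per group). With the trend over transcript length removed the difference was 0.06 (adjusted p = 0.69).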

How the results depend on the processing

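With 1 library per group no library could be left out, since the additive fit would have no residual degree of freedom, and no replicate variation was measured. No paired analysis was possible because the labels carry no replicate numbers. Values of single members kept direction and side of the threshold in 308 of 328 comparisons with an alternative, while 12 reversed, 5 were weaker and 3 stronger. Part of the 308 was fixed in advance. For the pairs of libraries, the filter at 1 FPKM, the assumed variation and the fold of 2 reuse the same log2 ratio. A fold of 2 also cannot call a member that was not called before. The tally is therefore not a measure of robustness. With an assumed coefficient of variation of 0.2 or a fold of 2, 1 member (Slc7a5) was called higher with IL-4 in each genotype in place of 2 (Slc1a5 lost its call), and the calls over all genes (1994, 1466, 247 and 594 for IL-4 in WT, IL-4 in KO, KO untreated and KO with IL-4) became 258, 272, 15 and 21, and 861, 711, 128 and 171. A pseudocount of 1 left 156 and 322 calls for KO against WT untreated and with IL-4. Removing the length trend left 315 for KO against WT with IL-4 (217 higher and 98 lower, against 475 and 119), gave 808 higher and 816 lower for IL-4 in WT (against 766 and 1228), left 108 of 336 differences of response, gave 624 calls for the KO effect (against 196) and left 1 member lower for the IL-4 effect and 1, Slc1a5 (-0.29, adjusted p = 0.020 by edgeR), for the KO effect. Of 2987 calls for the IL-4 effect, 1675 remained in number with all genes with a read and 1223 with DESeq2. For the KO effect there were 494 calls with upper-quartile scaling, among them Slc1a5 as the 1 member lower (-0.34, adjusted p = 0.049 by edgeR), 24 with all genes with a read, 65 with DESeq2 and 92 with limma.

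The sign turned with the length trend removed for Slc38a2 with IL-4 in WT (to 0.038) and in the additive fit (to 0.080), for Slc38a1, Slc38a2 and Slc43a2 in KO against WT with IL-4 (to -0.080, -0.048 and -0.069), for Slc38a1, Slc7a7 and Slc43a2 in the KO effect (to -0.027, 0.012 and -0.013) and for the response differences of Slc38a1 and Slc43a2 (to -0.13 and -0.094). It also turned for the KO effect on Slc38a2 with DESeq2 (to 0.00050) and for the response difference of Slc3a2 with TMM (to -0.011). The cause was not tested. The splits of calls over all genes that moved most were those of IL-4 under the assumed variation, with 178 higher and 80 lower in WT and 209 and 63 in KO.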

Other observations

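Of 37 genes through which mTORC1 senses amino acids, 34 had a mean of at least 1 FPKM. With IL-4 1 rose in WT (Slc38a9, the lysosomal arginine sensor), and in KO 0 rose and 2 fell (Deptor and Fnip2), both of which fell in WT as well. With the length trend removed Slc38a9 rose in both genotypes and Deptor lost its call and Kptn gained one (lower) in KO. Fnip2, a partner of folliculin, went from 83.8 to 34.5 FPKM in WT and from 87.4 to 44.0 FPKM in KO, and Deptor, an inhibitor of mTOR, from 3.04 to 1.39 and from 3.43 to 2.07 FPKM. The median log2 ratio of the 34 was -0.01 in WT and -0.02 in KO. Of all genes of that level 6.08% rose and 9.38% fell in WT, and 6.45% rose and 5.03% fell in KO. Between genotypes 0 of the 34 were called in untreated cells.

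Of 25 genes that use glutamine or branched-chain amino acids, 20 had a mean of at least 1 FPKM. With IL-4 Gpt2, which makes alanine, rose in both genotypes, from 4.65 to 7.75 FPKM in WT and from 4.70 to 9.61 FPKM in KO. Ppat and Ctps, which use glutamine for nucleotides, rose in KO, where Ctps lost its call with the length trend removed, and the remaining genes were not called in either pair. The 1 of 20 in WT and 3 of 20 in KO are 5% and 15%, beside the shares of all genes above. Between genotypes 0 of the 20 were called. The median log2 ratio with IL-4 was 0.00 in WT and 0.06 in KO.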
